A study of Mus musculus with 7 samples.

Results

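The proteasome genes studied here encode the subunits, regulators and assembly factors of the cell's main protein-degrading machine. Members were the genes whose symbol is Psma, Psmb, Psmc, Psmd, Psme, Psmf or Psmg followed by a number, on array rows that the platform annotation ties to a single gene. Where a gene had several such probe sets, the one with the highest mean log2(intensity + 1) over the 7 arrays stood for it, whatever the genotype. This gave 47 members among 22180 genes with such a probe set. Psma4 was not a member, because both of its probe sets are also annotated to AY074887. The RNA came from bone marrow hematopoietic stem cells of mice at 8 weeks of age on the C57BL/6J background. The marrow had been depleted of lineage-positive cells and sorted for SLAM-family surface markers. The 3 arrays labelled Ahr-KO carry a knockout of the aryl hydrocarbon receptor gene Ahr, and the 4 WT arrays carry its wild-type form. The labels name no other treatment and do not give the deleted part of Ahr, the cells in which it is deleted, or whether the arrays stand for different mice or for pools. P-values therefore cover the spread from array to array alone, and that spread may be technical.

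The 26S proteasome degrades proteins tagged with ubiquitin. Its 20S core is a barrel of outer alpha rings and inner beta rings, in which Psmb5, Psmb6 and Psmb7 encode the standard proteolytic subunits. Cells exposed to interferon gamma, and blood cells at rest, can build the core with Psmb8, Psmb9 and Psmb10 in place of Psmb5, Psmb6 and Psmb7, which alters the peptides presented on MHC class I. The 19S particle caps the core: its Psmc ATPases unfold and thread the substrate, and its Psmd subunits bind and remove ubiquitin. Other members open the core without ATP (Psme), regulate it (Psmf1) or help to assemble it (Psmg).

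The deposited intensities are linear values per probe set, and all differences below are Ahr-KO minus WT on the log2(intensity + 1) scale. Array medians over all rows ran from 16.9 to 22.1. Background was marked on each array by its 1091 probe sets for olfactory receptors, which blood cells mostly lack, at their 95th percentile, which gave 33.8 to 42.9. Across annotated probe sets, which are not replicates of one another, pairs of arrays correlated at 0.619 to 0.772, and WT replicate 2 had the lowest mean correlation with the others (0.625). The Ahr probe set itself gave Ahr-KO values of 34.1, 137 and 26.4 and WT values of 31.3, 57.9, 14.9 and 20.5. It was above the background mark on 1 Ahr-KO array and 1 WT array only, and it was not lower in the arrays labelled Ahr-KO. Because its other values lie below that mark and the part of Ahr that it covers is not given, it does not check the labels. Of the stem cell markers, Kit was above the mark on all 7 arrays (653 to 1258), and Slamf1, a SLAM-family gene, on all 3 Ahr-KO arrays and 1 of 4 WT arrays. Mecom was listed at 0 on WT replicate 2.

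Most proteasome probe sets gave a signal above background. Of the 47 members, 30 (63.8%) were above the olfactory receptor mark on all 7 arrays and none was below it on every array, where 13.7% of all genes were above it on all 7 and 34.4% on none. Probe brightness enters these shares, so they do not rank genes by expression. By array, 37, 40 and 44 members were above the mark in Ahr-KO and 44, 37, 38 and 45 in WT. The median log2 value over the members came to 7.86, 8.42 and 7.82 for Ahr-KO, compared with 8.48, 8.11, 7.58 and 8.13 for WT, and the ranges of the genotypes overlapped. WT replicate 3 held the lowest value of 15 members, WT replicate 2 of 12 and Ahr-KO replicate 1 of 10, whereas Ahr-KO replicate 2 held the lowest value of none. Deviations of both signs occurred in both genotypes, as the map of deviations by array shows.

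**Figure D1:**
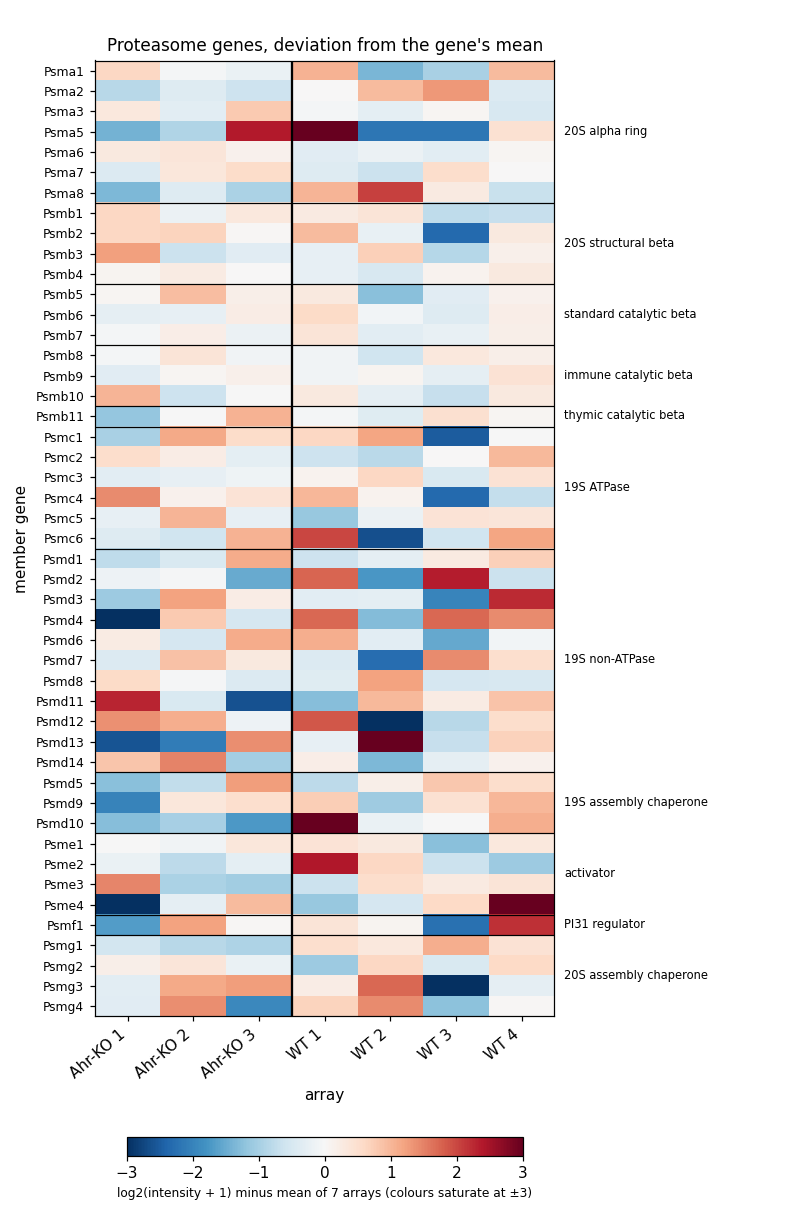
Each row is 1 of the 47 members and each column 1 array, and colour gives log2(intensity + 1) minus the gene's mean over the 7 arrays, with rows grouped by role and a thick line between the 3 Ahr-KO and 4 WT arrays. The rows of the standard and immune catalytic subunits are mostly pale. Those of Psma5, Psmd13 and Psme4 hold strong colours in both genotypes, and that of Psmd12 holds its strongest on WT replicate 2.

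No member passed an adjusted p of 0.05 (limma, Benjamini-Hochberg over 25335 probe sets), and the lowest adjusted p among members was 0.963. Over all tested probe sets the share called was 0%. At an unadjusted limma p under 0.05, no member was higher in Ahr-KO and 2 of 47 were lower, the assembly chaperone genes Psmg1 and Psmd10, where 1.98% of all genes were higher and 2.04% lower. Values of the genotypes did not overlap for 1 member with higher values in Ahr-KO (Psma6) and 2 with lower values (Psmg1 and Psmd10), where 2.62% and 3.15% of all genes did so. The counts of 0, 1 and 2 members are near those background shares. In RNA of sorted cells in bulk, fewer cells of a type and less RNA per cell cannot be told apart. Of the 47 differences, 26 were above 0 and 21 below, with a median of 0.08, where 48.4% of all genes were above 0 with a median of -0.03. Without WT replicate 3 the members' median was -0.13, and without WT replicate 2 it was -0.11, against -0.04 and -0.07 over all genes. Without WT replicate 4 the median was 0.21. When each array was left out in turn, 24 of the 47 members kept the sign of their difference in all 7 fits, 13 of them above 0 and 11 below, and 23 changed sign at least once.

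**Figure D2:**
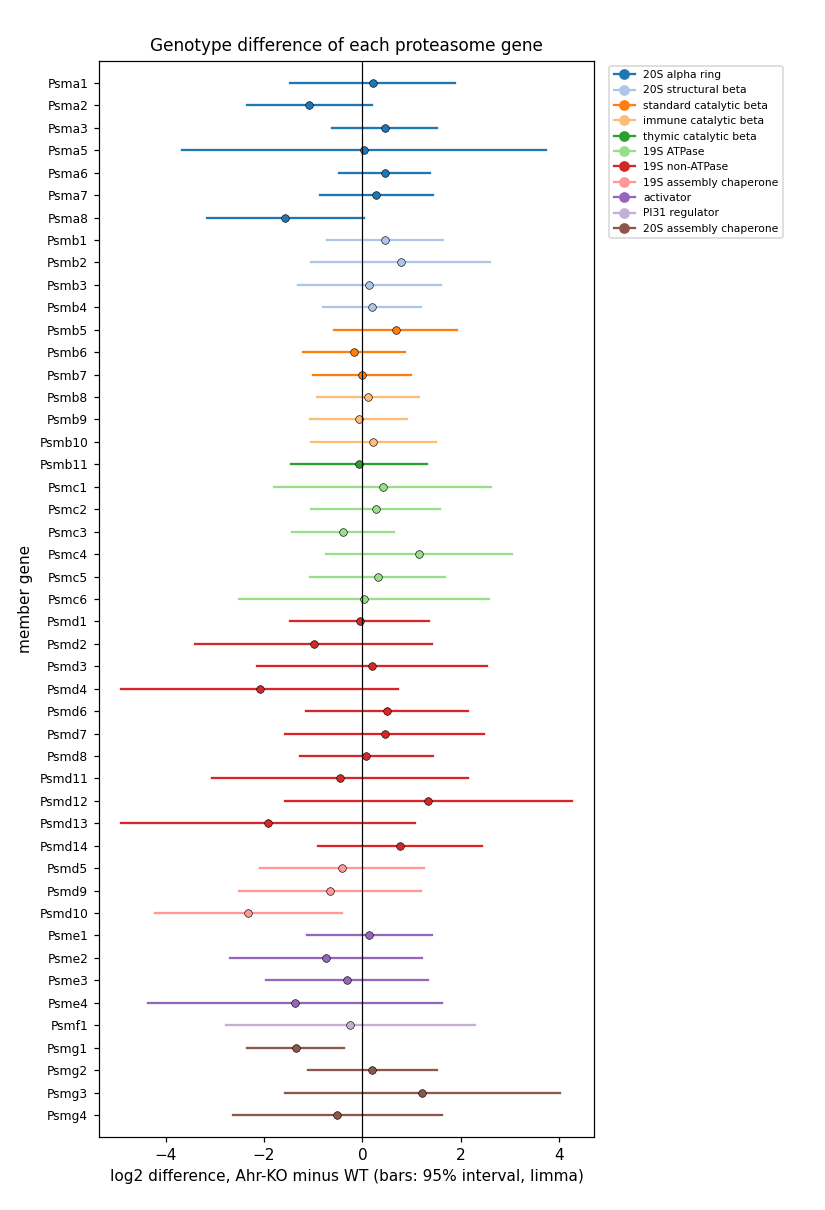
Points are the log2 difference, Ahr-KO minus WT, of each of the 47 members, bars are 95% intervals from the limma fit, and colours give roles. The intervals of Psmg1 and Psmd10 lie below 0, and those of the other 45 members cross it.

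The 3 standard catalytic subunits, which carry the proteolytic activity of the ordinary core, differed by -0.18 to 0.68. Psmb5 (probe set 17306417), the chymotrypsin-like subunit, read 576, 1052 and 626 on arrays labelled Ahr-KO, compared with 681, 231, 435 and 603 on those labelled WT. The Ahr-KO values overlapped the upper WT values, and WT replicate 2 was the lowest array. Its difference was 0.68 ± 0.54 (SE, n = 3 and 4, limma adjusted p = 0.963, 95% interval -0.57 to 1.93), and 0.36 without WT replicate 2. Psmb6 (probe set 17252070), the caspase-like subunit, measured 779, 791 and 1087 on the Ahr-KO arrays, against 1401, 893, 715 and 1069 on the WT arrays, a difference of -0.18 ± 0.45 (SE). Psmb7 (probe set 17384693), the trypsin-like subunit, gave Ahr-KO values of 476, 568 and 441 and WT values of 643, 395, 424 and 561, a difference of -0.01 ± 0.43 (SE, 95% interval reaching 0.98 at its upper end). For Psmb6 and Psmb7 the highest value of all 7 arrays was that of WT replicate 1, and the genotypes overlapped throughout.

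The 3 immune catalytic subunits were above the olfactory receptor mark on every array and differed by -0.08 to 0.22. Psmb8 (probe set 17336446), which takes the place of Psmb5, read 1084, 1483 and 1051 on arrays labelled Ahr-KO, compared with 1055, 748, 1426 and 1294 on those labelled WT. Its difference was 0.12 ± 0.45 (SE, limma adjusted p = 0.988, 95% interval -0.92 to 1.15). Psmb9 (probe set 17343789), which takes the place of Psmb6, measured 779, 1043 and 1096 on the Ahr-KO arrays, against 919, 1057, 824 and 1345 on the WT arrays, a difference of -0.08 ± 0.43 (SE, limma adjusted p = 0.992, 95% interval -1.07 to 0.91). Psmb10 (probe set 17512554), which takes the place of Psmb7, gave Ahr-KO values of 1648, 528 and 800.3 and WT values of 989.9, 677, 499.9 and 991. Both the highest and the second lowest of these values were Ahr-KO arrays, and its difference was 0.22 ± 0.55 (SE), or -0.22 without Ahr-KO replicate 1. The intervals of these 6 catalytic genes each reach about 1 log2 unit or more in at least 1 direction, so a p above the threshold does not show that the genotypes are alike. Their width rests on the moderated SE, which also draws on the spread of all other tested probe sets. That SE exceeds the gene's own residual SD for Psmb6, Psmb7, Psmb8 and Psmb9 (0.43 against 0.28 for Psmb7), but not for Psmb5 and Psmb10. Exact permutation tests of the 6 genes over the 35 splits of the arrays gave two-sided p-values from 0.257 (Psmb5) to 0.943 (Psmb7), where the smallest p possible is 0.0286.

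**Figure D3:**
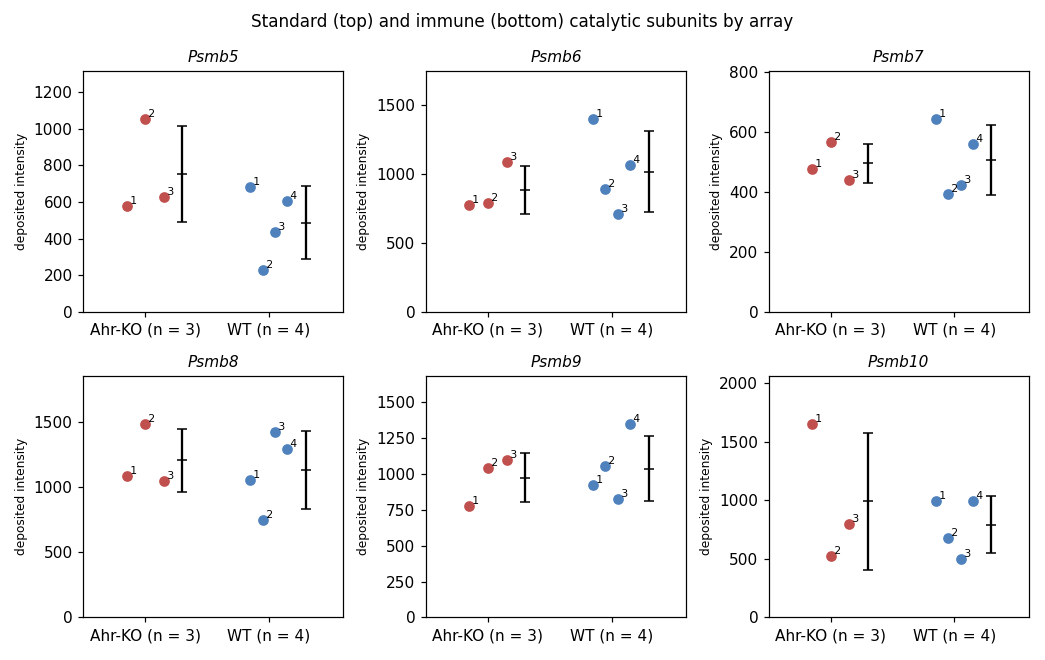
Deposited linear intensities of the standard subunits Psmb5, Psmb6 and Psmb7 (top) and the immune subunits Psmb8, Psmb9 and Psmb10 (bottom), with points numbered by replicate and bars giving the mean ± SD of 3 Ahr-KO and 4 WT arrays. The genotypes overlap in all 6 panels, and the widest spread is that of Psmb10 in Ahr-KO (528 to 1648).

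Standard against immune subunits were compared within each array, as the log2 value of an immune gene minus that of the standard gene it replaces. Because different probes differ in brightness, the size of such a difference in one array has no meaning of its own and only its change between arrays was read. For Psmb8 minus Psmb5 the Ahr-KO arrays gave 0.91, 0.49 and 0.75 and the WT arrays 0.63, 1.69, 1.71 and 1.10, with means of 0.72 ± 0.21 (SD, n = 3) and 1.28 ± 0.52 (SD, n = 4). WT replicate 1 lay among the Ahr-KO arrays and the other WT arrays lay above them. For Psmb9 minus Psmb6 the means were 0.14 ± 0.23 (SD, n = 3) and 0.04 ± 0.44 (SD, n = 4), with WT replicate 1 lowest at -0.61. For Psmb10 minus Psmb7 they were 0.85 ± 0.95 (SD, n = 3) and 0.61 ± 0.26 (SD, n = 4), and the Ahr-KO arrays held both the highest value (1.79) and the lowest (-0.10). Over the mean of the 3 immune minus the mean of the 3 standard genes, the arrays read 0.90, 0.26 and 0.54 on arrays labelled Ahr-KO, compared with 0.21, 0.90, 0.72 and 0.75 on those labelled WT. The genotypes overlapped in every one of these measures, and their order differed between the 3 exchanges.

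The gene for one immune subunit, Psmb9, lies head to head with Tap1, which encodes part of the transporter that carries proteasome products to MHC class I, and Psmb8 and Tap2 follow in the RefSeq gene order of GRCm38.p6. The 4 genes of this cluster had unlike differences. Tap1 measured 186, 82.4 and 76.6 on the Ahr-KO arrays, against 190.3, 203, 134 and 273 on the WT arrays, a difference of -0.87 ± 0.51 (SE, limma adjusted p = 0.963, exact permutation p = 0.143). Tap2 gave Ahr-KO values of 11.6, 6.53 and 16.4 and WT values of 27.3, 29.5, 255 and 24.6. Its genotypes did not overlap, with a difference of -2.04 ± 0.88 (SE, unadjusted limma p = 0.0493, adjusted p = 0.963, exact permutation p = 0.0571), but it exceeded the background mark on WT replicate 3 alone, without which the difference was -1.25. Psmb8 and Psmb9, between and beside these genes, differed by 0.12 and -0.08. The promoter windows are shown for Psmb5 and Psmb8, which exchange in the core, for Psmb9, whose window also holds the start of Tap1, and for Psmg1, the member with the smallest p. They are the 250 bases before the RefSeq start, 5′ to 3′ on the strand of the gene, from build GRCm38.p6. Capitals mark matches on either strand to TGACNNNGC (the antioxidant response element, bound by Nfe2l1 and Nfe2l2), GAAA followed by any 2 bases and GAAA again (the interferon-stimulated response element) or TTCNNNGAA (the gamma-activated site).
Psmb5 (chr14:54617996-54618245, minus strand): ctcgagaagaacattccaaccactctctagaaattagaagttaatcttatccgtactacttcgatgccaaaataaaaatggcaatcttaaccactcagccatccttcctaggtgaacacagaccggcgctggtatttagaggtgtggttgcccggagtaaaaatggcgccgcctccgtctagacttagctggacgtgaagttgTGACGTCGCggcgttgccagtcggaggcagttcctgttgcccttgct
Psmb8 (chr17:34197945-34198194, plus strand): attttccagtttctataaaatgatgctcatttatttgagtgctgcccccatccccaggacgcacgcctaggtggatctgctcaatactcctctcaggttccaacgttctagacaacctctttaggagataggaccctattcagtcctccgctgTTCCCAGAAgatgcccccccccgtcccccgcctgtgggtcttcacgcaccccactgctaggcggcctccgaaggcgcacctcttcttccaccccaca
Psmb9 (chr17:34187331-34187580, minus strand): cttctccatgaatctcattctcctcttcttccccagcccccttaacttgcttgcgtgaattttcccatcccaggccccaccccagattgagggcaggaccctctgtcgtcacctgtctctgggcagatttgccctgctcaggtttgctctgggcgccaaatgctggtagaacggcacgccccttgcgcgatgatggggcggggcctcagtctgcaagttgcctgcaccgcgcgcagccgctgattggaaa
Psmg1 (chr16:95990961-95991210, minus strand): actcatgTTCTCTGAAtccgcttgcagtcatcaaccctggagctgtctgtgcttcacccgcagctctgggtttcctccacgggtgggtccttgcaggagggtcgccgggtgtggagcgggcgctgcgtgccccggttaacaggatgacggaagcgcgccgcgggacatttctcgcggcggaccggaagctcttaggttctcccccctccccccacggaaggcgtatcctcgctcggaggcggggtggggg

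Psmb5 held the antioxidant response letters, Psmb8 and Psmg1 the gamma-activated letters, and Psmb9 none of the 3 motifs. Of the 47 members, 39 matched a RefSeq promoter entry by symbol, with 42 entries in all. TGACNNNGC was present in 5 of 42 entries (11.9%), those of Psmb5, Psmb6, Psmc6, Psmd12 and Psmd9, against 10.2% of all 32851 promoter entries. The interferon-stimulated letters were present in 3 of 42 (7.14%), those of Psmb3, Psmd4 and Psmd9, against 2.98%, and TTCNNNGAA in 2 of 42 (4.76%), those of Psmb8 and Psmg1, against 7.02%. CCAAT, the box bound by NF-Y and not shown in capitals, was present in 14 of 42 (33.3%) against 33.8%. The antioxidant and interferon-stimulated letters are both in the window of Psmd9. These matches describe letters in the window only.

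The alpha ring forms the gate of the core, and its 7 measured genes had a median difference of 0.21. Psma6 (probe set 17275555) had the smallest residual spread of all members, 0.16 log2 units. It read 884, 929 and 794 on arrays labelled Ahr-KO, compared with 576, 645, 578 and 755 on those labelled WT, or 869 ± 68.4 (SD, n = 3) against 638 ± 83.8 (SD, n = 4). Every Ahr-KO array was above every WT array. The difference was 0.45 ± 0.40 (SE, limma adjusted p = 0.963), where the moderated SE exceeds the gene's own spread, and its exact permutation p was 0.0571. It ran from 0.40 to 0.53 when single arrays were left out. Psma2 (probe set 17285386) had lower values, 324, 440.2 and 377 on arrays labelled Ahr-KO compared with 583, 1113, 1429 and 434 on those labelled WT, with WT replicate 4 inside the Ahr-KO range. Its difference was -1.08 ± 0.55 (SE, unadjusted limma p = 0.0861, adjusted p = 0.963, exact permutation p = 0.114). Psma3 and Psma7 differed by 0.45 and 0.28 and Psma1 by 0.21. Psma5 was uneven in both genotypes, with Ahr-KO values of 12, 17.5 and 178 and WT values of 491, 6.73, 6.63 and 46.1, and its other probe set was above the mark on no array. Psma8, which encodes the alpha subunit of the testis proteasome, measured 11.7, 24.1 and 15.8 on the Ahr-KO arrays, against 65.2, 134, 38.3 and 19.6 on the WT arrays. It exceeded the mark on 2 WT arrays only, with a difference of -1.57 ± 0.69 (SE, unadjusted limma p = 0.0547, adjusted p = 0.963, exact permutation p = 0.114) that was -1.08 with a pseudocount of 16.

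The 4 structural beta genes all had differences above 0, from 0.14 to 0.78, and none had an unadjusted p under 0.05. Psmb4 (probe set 17407631) gave Ahr-KO values of 1087, 1208 and 1026 and WT values of 859.9, 733, 1100.3 and 1263, a difference of 0.19. Psmb2 (probe set 17418629) read 851, 878 and 571 on arrays labelled Ahr-KO, compared with 1065, 471, 109 and 679.9 on those labelled WT. Its difference of 0.78 ± 0.79 (SE) rested on the low value of WT replicate 3 and was 0.11 without that array. Psmb1 and Psmb3 differed by 0.45 and 0.14, and leaving out Ahr-KO replicate 1 or WT replicate 3 turned that of Psmb3 to -0.44 and -0.13. Over the 16 core genes of the alpha and beta rings, without the testis gene Psma8 and the thymic gene Psmb11, 12 differences were above 0 with a median of 0.20. Without WT replicate 2 or WT replicate 3, 9 of 16 were above 0, with medians of 0.08 and 0.07. Psmb11, the catalytic subunit of the thymic cortex, stood at 8.54 to 43.2 over all arrays and was above the mark on Ahr-KO replicate 3 alone.

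The 19S particle was measured through all 6 ATPase genes and 11 non-ATPase genes, and none had an unadjusted p under 0.05. Of the 17 differences, 11 were above 0, with a median of 0.20, and without WT replicate 3 the median was -0.08. Among the ATPases, which form the ring on top of the core, Psmc4 (probe set 17488352) differed most. It measured 962, 393 and 478 on the Ahr-KO arrays, against 717, 385, 70.4 and 220.3 on the WT arrays, with a difference of 1.14 ± 0.82 (SE), or 0.52 without WT replicate 3. Psmc3 was the steadiest ATPase gene, with Ahr-KO values of 267, 279.6 and 305 and WT values of 354, 509, 239.9 and 448, a difference of -0.40 ± 0.45 (SE). Psmc1, Psmc2, Psmc5 and Psmc6 differed by 0.42, 0.27, 0.31 and 0.03. The other Psmc2 probe set differed by 0.58, in the same direction.

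The non-ATPase genes had differences from -2.09 to 1.34, and many were uneven within a genotype. Psmd4 (probe set 17407669), a receptor for ubiquitin chains, gave Ahr-KO values of 6.46, 185 and 75.7 and WT values of 357, 43.3, 359 and 289.8. WT replicate 2 lay inside the Ahr-KO range, and the difference was -2.09 ± 1.22 (SE). Without Ahr-KO replicate 1 it was -0.76, and without Ahr-KO replicate 2 it was -3.08. Psmd13 (probe set 17484644) read 12.1, 17.7 and 209 on arrays labelled Ahr-KO, compared with 65.8, 925, 48.1 and 127 on those labelled WT, a difference of -1.92 ± 1.29 (SE). Leaving out WT replicate 2 or Ahr-KO replicate 1 gave -1.01 and -1.16, and leaving out Ahr-KO replicate 3 gave -3.16, where its unadjusted limma p was under 0.05. Psmd12 (probe set 17257663) measured 413, 342 and 144 on the Ahr-KO arrays, against 585, 10, 90.1 and 232 on the WT arrays. Its difference of 1.34 ± 1.26 (SE) was 0.24 without WT replicate 2 and 2.15 without WT replicate 1. Psmd14 (probe set 17371123), the deubiquitinase that cuts chains from substrates, gave Ahr-KO values of 149, 235 and 40 and WT values of 94.5, 31.8, 68.7 and 90.1. Its difference was 0.76 ± 0.72 (SE), and leaving out Ahr-KO replicate 2, WT replicate 2 or Ahr-KO replicate 3 gave 0.23, 0.42 and 1.49. Psmd2, a scaffold of the particle, reached 864 and 1321 on WT replicates 1 and 3 and stood at 76.7 and 164 on the other WT arrays, with a difference of -0.99 ± 1.04 (SE). Leaving out WT replicate 3, Ahr-KO replicate 3 or WT replicate 1 gave -0.35, -0.51 and -0.55, and leaving out WT replicate 2 gave -1.71. The remaining 6 genes, Psmd1, Psmd3, Psmd6, Psmd7, Psmd8 and Psmd11, differed by -0.46 to 0.50, and all of these but Psmd6 changed sign when some single array was left out.

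The chaperones that assemble the 19S base, Psmd5, Psmd9 and Psmd10, all had differences below 0 (-0.42, -0.66 and -2.32), and none was above the mark on all 7 arrays. Without Ahr-KO replicate 1, Psmd5 and Psmd9 had differences of 0.09 and 0.15. Psmd10 (probe set 17544960), which encodes gankyrin, read 10.6, 13.2 and 7.56 on arrays labelled Ahr-KO, compared with 239, 23.5, 27.1 and 58.4 on those labelled WT. The genotypes did not overlap, but all 3 Ahr-KO values and those of WT replicates 2 and 3 lay below the background mark. The difference was -2.32 ± 0.82 (SE, unadjusted limma p = 0.023, adjusted p = 0.963, exact permutation p = 0.0857, 95% interval -4.22 to -0.42). It was -1.62 without WT replicate 1 and -1.52 with a pseudocount of 16. Without Ahr-KO replicate 1 or 3 the unadjusted p was 0.0519 and 0.0692.

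The chaperones that assemble the 20S core are encoded by Psmg1 to Psmg4, which work as the dimers of Psmg1 with Psmg2 and Psmg3 with Psmg4. Psmg1 (probe set 17332386) measured 154, 126 and 118 on the Ahr-KO arrays, against 320.3, 284, 482 and 304 on the WT arrays, or 133 ± 18.6 (SD, n = 3) against 348 ± 90.5 (SD, n = 4). All 7 values were above the mark, and every Ahr-KO array was below every WT array. The difference was -1.36 ± 0.43 (SE, unadjusted limma p = 0.0134, adjusted p = 0.963, exact permutation p = 0.0286, 95% interval -2.35 to -0.37). That permutation p is the smallest the 35 splits allow and is not adjusted for the 47 members. The difference ran from -1.47 to -1.19 when single arrays were left out, with unadjusted p-values from 0.0171 to 0.0409. Its partner Psmg2 (probe set 17355228) gave Ahr-KO values of 326, 369.8 and 253 and WT values of 135, 442, 209 and 437, a difference of 0.20 ± 0.56 (SE). The other Psmg2 probe set, above the mark on 6 arrays, differed by -0.13 ± 0.89 (SE). Without Ahr-KO replicate 1 or 2 that probe set gave -0.89 and 0.97. Psmg3 (probe set 17454516) read 66.7, 185 and 198 on arrays labelled Ahr-KO, compared with 96.8, 275, 5.24 and 68.7 on those labelled WT, a difference of 1.22 ± 1.21 (SE), or 0.14 without WT replicate 3 and 1.96 without WT replicate 2. Psmg4 differed by -0.51 ± 0.92 (SE), and leaving out Ahr-KO replicate 2 or 3 gave -1.35 and 0.30.

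**Figure D4:**
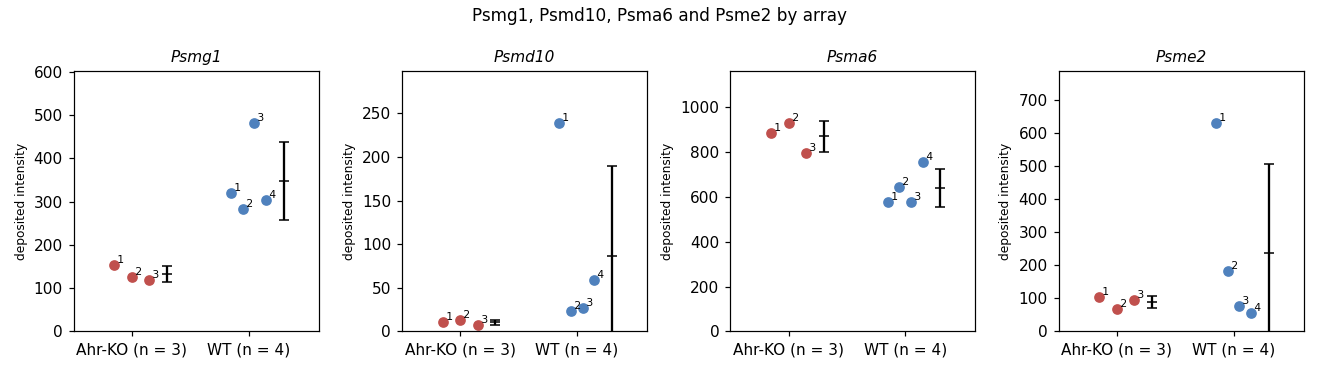
Deposited linear intensities of Psmg1, Psmd10, Psma6 and Psme2, with points numbered by replicate and bars giving the mean ± SD of 3 Ahr-KO and 4 WT arrays (the lower ends of the WT bars of Psmd10 and Psme2 run below the axis). The genotypes separate for Psmg1, Psmd10 and Psma6, and for Psmd10 and Psme2 the WT mean is drawn up by replicate 1 (239 and 632).

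The activators Psme1 and Psme2 form the interferon-inducible PA28 ring, which opens the core and often works beside the immune subunits. Psme1 (probe set 17300548) measured 699, 654 and 892 on the Ahr-KO arrays, against 935, 865, 294 and 868 on the WT arrays. WT replicate 3 was the lowest and the other WT arrays lay within or just above the Ahr-KO range, with a difference of 0.14 ± 0.55 (SE), or -0.26 without that array. Psme2 (probe set 17306705) gave Ahr-KO values of 104, 68.1 and 96.2 and WT values of 632, 183, 75.5 and 55.1. Its difference of -0.75 ± 0.84 (SE, limma adjusted p = 0.964) was -0.06 without WT replicate 1. The nuclear activator gene Psme3 differed by -0.31 and Psme4, which encodes PA200, by -1.37, the latter with values from 2.23 to 278 over the arrays. Without Ahr-KO replicate 1 or WT replicate 4, Psme4 differed by -0.26 and -0.43, and without Ahr-KO replicate 3 by -2.24. Psmf1, which encodes the regulator PI31, was above the mark on 4 of 7 arrays and differed by -0.25 ± 1.09 (SE).

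Members differed widely in how steady they were between arrays of one genotype. The 16 core genes had a median residual SD of 0.52 log2 units, and the 17 ATPase and non-ATPase genes of the 19S particle had 1.29. Spread depended on level over the whole table, with a median residual SD of 1.21 in genes of mean log2 value 6 to 7 and 0.28 in genes of 10 or more. Within bands of level the members lay on both sides of other genes. The 11 members between 9 and 10 had a median of 0.63 against 0.60 over 361 genes, and the 13 members between 7 and 8 had 1.01 against 1.05. The 6 members between 6 and 7 had 1.78 against 1.21, and these included Psmc6, Psmd4 and Psmd13. Below 6 the 8 members had 1.17 against 0.91, between 8 and 9 the 6 members had 0.61 against 0.82, and from 10 up the 3 members had 0.36 against 0.28. Psmg1 was steadier than most genes of its level, at 0.29 where the median between 7 and 8 was 1.05.

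**Figure D5:**
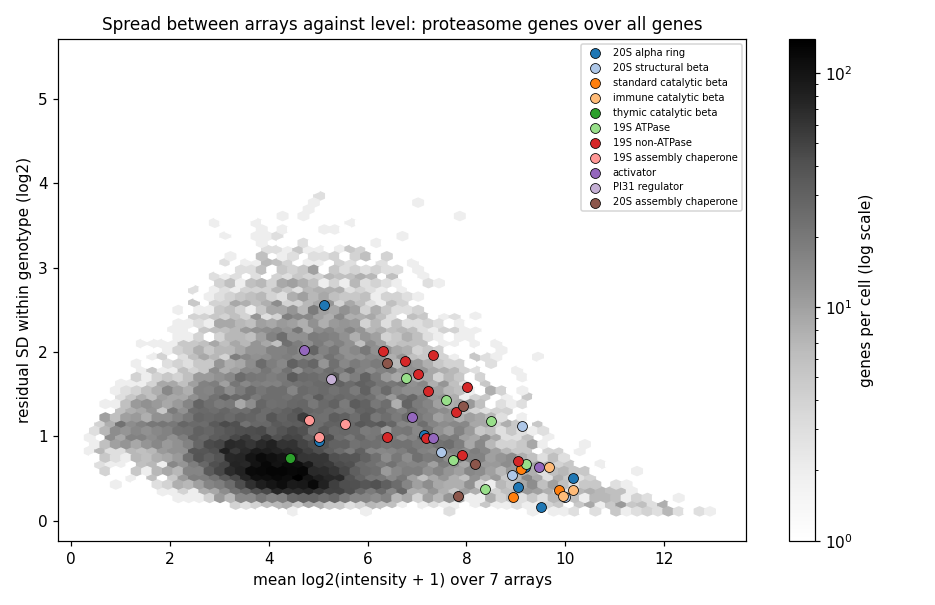
Residual SD within genotype (log2 units) against mean log2(intensity + 1) over 7 arrays, with grey cells counting all 22180 genes and coloured points the 47 members by role. Above a mean log2 value of 6 the spread declines with level, Psma7, Psmb4 and Psmb8 lie at the bright end, Psma5 (2.56) has the widest spread of the members, and Psma6 (0.16) and Psmg1 (0.29) lie low for their level.

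Other genes of the pathway gave no call either. Of 12 measured cofactor and assembly genes, 9 were higher in Ahr-KO and none had an unadjusted p under 0.05. Without WT replicate 2 the count was 7 of 12. Sem1, the smallest 19S subunit, read 2536, 1636 and 1877 on arrays labelled Ahr-KO, compared with 1595, 1087, 1160.1 and 1509.8 on those labelled WT. Its genotypes did not overlap, with a difference of 0.59 ± 0.43 (SE). Ecpas, a scaffold on the 26S particle, differed by 1.39 ± 0.98 (SE, or 0.61 without WT replicate 2), the redox protein gene Txnl1 by -0.58 ± 0.45 (SE) and Pomp, which matures the core, by 0.55 ± 0.50 (SE, or 0.14 without Ahr-KO replicate 3). Nfe2l1, whose product drives proteasome genes when degradation fails, was above the mark on 2 arrays and was listed at 0 on Ahr-KO replicate 1. Of 8 measured ubiquitin and shuttle genes, 5 were higher and none had an unadjusted p under 0.05, with Ufd1, part of the p97 adaptor, at -2.20 ± 1.76 (SE, or -0.46 without Ahr-KO replicate 1 and -3.45 without WT replicate 2), Faf1 at 1.29 ± 1.06 (SE, or 0.56 without Ahr-KO replicate 3) and Rad23b at 0.59 ± 0.57 (SE, or 0.25 without WT replicate 2). Ubqln2, a shuttle that carries ubiquitinated proteins, averaged 81.6 ± 40.6 (SD, n = 3) on the Ahr-KO arrays, against 185 ± 119 (SD, n = 4). Of 8 class I antigen processing genes, 6 were higher, and Tap2 was the one with an unadjusted p under 0.05. In that list Calr, a chaperone of class I folding, differed by 0.74 ± 0.45 (SE) and Nlrc5, an activator of class I genes, by 1.38 ± 0.85 (SE, or 0.65 without Ahr-KO replicate 3). Every Ahr-KO value of Calr was above every WT value (unadjusted limma p = 0.142, exact permutation p = 0.0286), as for 2.62% of all genes. The median of that list was 0.34, or -0.26 without WT replicate 2. Of 15 interferon response genes, 8 were higher with a median of 0.03, and the guanylate-binding protein gene Gbp3 was the one with an unadjusted p under 0.05 (1.76 ± 0.71, SE). The median of these 15 was 0.51 without Ahr-KO replicate 1 (10 higher) and -0.23 without Ahr-KO replicate 2 (7 higher). Irf7, Igtp and Cxcl10 differed by 3.33, 1.80 and -1.43, and 3 of the 15, Ifit1, Mx1 and Cxcl10, were above the mark on no array. The genotypes did not overlap for Igtp (exact permutation p = 0.0571).

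Markers of other blood cells were uneven between arrays. All 11 granulocyte and monocyte markers had differences above 0, with a median of 1.12, and their summed intensity ran from 5505 to 15824 in Ahr-KO and from 823 to 16399.5 in WT. Without WT replicate 1 the differences of 8 of the 11 were above 0, with a median of 0.18, and without Ahr-KO replicate 2 they were 9 of 11, with a median of 0.41. The lowest sum was that of WT replicate 1, the array that held the highest value of 10 members. These included Psme2 and Psmd10, with differences below 0, and Psmb2 and Psmd12, with differences above 0. Of 10 macrophage and dendritic markers 8 were lower, with sums from 288 to 1105 in Ahr-KO and from 828 to 1628 in WT, and Vcam1 was listed at 0 on WT replicate 2. Their median of -0.78 was -0.40 without WT replicate 4 (6 of 10 lower) and -0.20 without Ahr-KO replicate 1 (7 of 10). Without WT replicate 2 it was -1.13. In this list and the granulocyte and monocyte list, 1 marker each had an unadjusted limma p under 0.05, with genotypes that did not overlap. Fcgr3, of the latter, differed by 1.80 ± 0.58 (SE, limma adjusted p = 0.963), and by 1.56 to 2.23 without single arrays. H2-Eb1 differed by -2.30 ± 0.75 (SE, limma adjusted p = 0.963), and by -3.05 to -1.58 without single arrays. Over all genes, 2.62% were higher and 3.15% lower without overlap. Of 5 B cell markers all 5 were lower, or 3 of 5 without Ahr-KO replicate 2 or 3 (sums of 116 to 169.8 and 128 to 283), and among 6 markers of T and NK cells 4 were higher (386 to 1079.6 and 202 to 617). The 10 stem cell markers had sums from 1884 to 2792 in Ahr-KO and from 2707 to 7189 in WT. Gata2 alone gave 3932 of the highest sum, that of WT replicate 3. Of the 10 markers, 8 had differences below 0. Slamf1 was an exception, at 57.4, 78 and 236 for Ahr-KO and 4.56, 23.3, 7.81 and 73.3 for WT, a difference of 2.58 ± 0.97 (SE, limma adjusted p = 0.963). Of 2 measured erythroid genes, Klf1 differed by 1.06 and Car2 by -1.48, with sums of 360 to 766 and 976 to 1346. Klf1 exceeded the mark on Ahr-KO replicate 2 alone, without which its difference was 0.02. Car2 was above the mark on all 7 arrays, and its genotypes did not overlap (-1.48 ± 0.44, SE, unadjusted limma p = 0.0101, adjusted p = 0.963, exact permutation p = 0.0286). The part of these markers in the proteasome values was not tested.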

How the data were processed

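Total RNA from sorted hematopoietic stem cells was made into biotinylated cDNA and hybridised to 7 arrays, per the labels' protocols. The deposited values are linear intensities per probe set that the authors summarised. The software was Affymetrix Expression Console, per the submitters' processing notes. Its algorithm, background correction and normalization, and the genome build, are not stated in the labels or headers read here. Arrays have no read depth, so their number limits the precision.

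The platform annotation listed 25335 of 41155 rows, 23521 of them with 1 gene symbol. Of these, 23328 took current symbols through the GRCm38.p6 RefSeq table. Intensities were transformed to log2(intensity + 1), which understates the change of dim genes, and fitted with limma 3.58.1 (R 4.3.3, lmFit and eBayes), with a term for genotype alone. Tests were two-sided, and Benjamini-Hochberg adjustment ran over 25335 probe sets with a threshold of 0.05. The fit was run on simulated arrays with known shifts, to check that it returns their mean size. That run checks the code and is not a measure of power at the differences reported here. Promoter windows come from RefSeq (GRCm38.p6).

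Members and gene lists were chosen with earlier results of these data known. Described in full were the 6 catalytic genes, Psme1, Psme2 and, of the others, the 6 in each direction with the smallest unadjusted p. Members named beyond these were the extremes of their role, those with genotypes that do not overlap, and others chosen after their values were seen. Of each pathway list, up to 4 genes of smallest unadjusted p were named. Nfe2l1, Ifit1 and Mx1 lie outside that rule and were named after values were seen, as were Fcgr3 and H2-Eb1 among the markers. Some listed genes are not reported here.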

Additional observations from a re-analysis of the deposited data

Results flagged for a closer look

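In 3 of 50 sets of 4 WT values examined (the 47 members and 3 per-array medians), 1 array lay far from the others, its gap to the nearest array passing Dixon's critical share of the whole range for 4 values. Chance alone marks about 1 in 20 such sets. The Ahr-KO group, with 3 arrays, was not examined. For Psme1, WT replicate 3 was lowest at 294. For Psmd4, WT replicate 2 was lowest at 43.3. For Psmd8, WT replicate 2 was highest at 1225.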

How the results depend on the processing

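No member and no probe set passed an adjusted p of 0.05 under any of the 19 alternatives of normalization, filter, variance model, array weights, pseudocount, probe sets used, replicate block or left-out array. With quantile normalization or median centring the median over all genes moved from -0.03 to 0.01 and 0.04. The count of members at an unadjusted p under 0.05, 2 with all arrays, ran from 1 to 4 when single arrays were left out: Psmg1 alone without Ahr-KO replicate 1, and Psma2, Psma8, Psmd10 and Psmg1 without WT replicate 4. It was 1 (Psmg1) when probe sets were required to exceed the olfactory receptor mark on 3 arrays, which left 43 members, and 0 at an unadjusted p under 0.01. With a pseudocount of 16 the members were Psma2 and Psmg1. The share of all genes at an unadjusted p under 0.05 was counted in the main fit only. Member counts from the alternatives are therefore not set against other genes. The number of the 20 members described in full with an exact permutation p under 0.05 was 1 (Psmg1) and became 2 with median centring (Psma6 and Psmg1). Psma6, Psmg1 and others of the 20 were chosen for a small unadjusted p on these same arrays. No share of unselected genes was counted beside it, so no conclusion is drawn from that number. Of 378 differences of these 20 members under alternatives, 13 changed sign, all in genes near 0. Psmb7 was 0.06 after median centring and ran from -0.12 to 0.11 without single arrays. In the same fits Psmb8 ran from -0.07 to 0.24, Psmb9 from -0.18 to 0.07, Psmb10 from -0.22 to 0.60 and Psme1 from -0.26 to 0.29. Deviations from the group means correlated at 0.023, -0.065 and 0.010 between arrays of the same replicate number. Between arrays of different numbers they correlated at -0.084 to 0.123. These values gave no sign of pairing by replicate number, and a shared day or batch was not tested. With the replicate number as a block, 2 members had an unadjusted p under 0.05 (Psma8 and Psmd10) and that of Psmg1 was 0.0634. In that fit the log2 differences of Psmb7 and Psmb9 were 0.05 each. No symbol with a letter or pseudogene suffix was found, so that alternative gave no other value. At the 90th and 99th percentiles of the olfactory receptor probe sets, 33 and 20 members were above the mark on all 7 arrays. For dim members such as Psmd10, signal near background limits the size of a difference.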

Other observations

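Psma4, the alpha subunit gene left out because its probe sets are also annotated to AY074887, gave unlike values on its 2 probe sets. Probe set 17517456 was above the background mark on all 7 arrays, with Ahr-KO values of 304, 229 and 318 and WT values of 203, 282, 208 and 294, with overlapping genotypes. Probe set 17527308 measured 5.54, 8.72 and 5.63 on the Ahr-KO arrays, against 21.5, 167, 44.6 and 223 on the WT arrays, a difference of -3.39 ± 0.84 (SE, unadjusted limma p = 0.00396, adjusted p = 0.963, exact permutation p = 0.0571) on the log2(intensity + 1) scale. Every Ahr-KO value of that probe set lay below the background mark, as did WT replicate 1. The values of these probe sets cannot be assigned to Psma4 or AY074887. The probe set that Psme2 shares with 9930111J21Rik1 and 9930111J21Rik2 stood at 41.4 to 76 over all arrays, with a difference of -0.05.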
